A study of Mus musculus with 9 samples.

Results

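The genes described here encode the enzymes and transporters that take up glucose, split it to pyruvate, turn pyruvate into lactate and export it, together with the enzymes that build and break down glycogen. A list of 35 genes was drawn up by function, and 31 of them could be read by a probe set assigned to a single gene, out of 18195 genes tested. Gpi1, Eno1, Pfkfb1 and Mpc2 were not analysed here. Each gene was read by its brightest probe set, a group of short probes that report one transcript. All values are log2 signals, on which a difference of 1 is a 2-fold change.

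The study compared 3 groups of 3 Affymetrix expression arrays of total RNA from the mouse line SCCVII, which came from an oral squamous cell carcinoma that arose spontaneously in mice labelled CH3. PA denotes the parental cells, kept in standard culture. NIR denotes cells re-derived from tumours that PA cells formed in stroma that had not been irradiated, labelled poorly invasive and metastatic. IR denotes cells re-derived from tumours that PA cells formed in stroma irradiated beforehand; those tumours were labelled hypoxic, and the re-derived cells were labelled as keeping their invasive and metastatic behaviour when grown at normal oxygen. All 3 groups go back to the same tumour cells. The series calls the samples independent, but the labels do not tell if replicates within a group are different tumours, lines or dishes. The p-values therefore measure only how these arrays spread, which may be technical.

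Against the labelled cell type, the simple-epithelial keratins Krt8 and Krt18 gave strong signals in every group. Krt18 was at 11.94, 11.94 and 12.00 in IR, with a mean of 11.39 in NIR and 11.41 in PA. Its IR mean was 0.57 above that of NIR (limma adjusted p = 0.018) and 0.55 above that of PA (limma adjusted p = 0.0146). The squamous and junction markers Krt14, Trp63, Cdh1, Dsp and Perp lay below the median of all probe sets (4.49) in every array, so 8 of 13 epithelial markers were above it anywhere. The fibroblast list, which includes collagens, had a high summed signal in all groups including PA. On a linear scale it was 9352 to 9712 in IR, 9318 to 10683 in NIR and 7680 to 8896 in PA. Its brightest members were Col3a1, Col1a2 and Pdpn, and Fap and Thy1 lay below the median probe set in every array. Dcn exceeded its PA mean by 1.24 in IR (limma adjusted p = 0.00265) and by 0.81 in NIR (limma adjusted p = 0.039). For Lum the NIR mean lay 1.29 above that of PA (limma adjusted p = 0.0241). Pdpn gave -0.41 for IR against NIR (limma adjusted p = 0.0423). Of 15 macrophage markers, 8 lay above the median probe set in any array, and Aif1, C1qb, C1qc, Adgre1, Itgam, Ptprc and Cd163 in none. For Mrc1 the NIR mean lay 0.75 above that of PA (limma adjusted p = 0.0157), the only call in this list. The summed linear signal of the macrophage markers was 502, 518 and 845 in IR1, IR2 and IR3, 513 to 591 in NIR and 452 to 482 in PA arrays. The sum was highest in IR3, where Lyz2, the lysozyme of myeloid cells, made up 305 of it. IR3 was the highest IR array for 10 of the 15 markers, where it was for 34.4% of all genes. Without Lyz2 the sum was 450, 463 and 540 in IR1 to IR3 and 542 in NIR1, with the other arrays between 428 and 483.

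In glycolysis, glucose enters through facilitative carriers, is trapped by hexokinase, is committed at phosphofructokinase, is split by aldolase and is oxidised in the steps from glyceraldehyde-3-phosphate dehydrogenase to pyruvate kinase. Lactate dehydrogenase regenerates the cofactor, and monocarboxylate carriers move lactate out of the cell. Glycogen holds glucose in reserve through phosphoglucomutase, UDP-glucose pyrophosphorylase, glycogen synthase and branching enzyme, and is released by phosphorylase. Many of these genes are classic targets of the hypoxia-inducible factors, whose recognition core reads ACGTG or GCGTG, and several are also targets of Myc, which binds the E-box CACGTG. Tumour cells are known for high glycolysis even where oxygen is present.

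Because hypoxia was a labelled feature of the IR tumours, the upstream sequence of the members was searched for those letters. The window was the 250 bases before the first listed transcription start in RefSeq's GRCm38.p6 table, searched for ACGTG and GCGTG on both strands; CACGTG contains ACGTG and was also counted apart. Of the 31 members, 30 had a window, Slc2a3 being the exception. At least 1 of the 5-base motifs lay in 23 of the 30 windows (76.7%), against 49.8% of 14369 windows of all genes tested. ACGTG lay in 15 windows (50% against 19.8%), GCGTG in 15 (50% against 38.9%) and CACGTG in 4 (13.3% against 7.57%). The median GC content was 61% in the members' windows and 57.6% in those of all genes tested, and its part in the higher motif share was not tested. A match is a description of letters and not evidence that a factor binds there.

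The windows of 6 members are shown. Slc2a1, Pfkl, Aldoc, Ugp2 and Pfkfb4 are among the 8 members with an unadjusted p below 0.05 in IR minus NIR and were picked from them after their values were seen, and Ldha, whose product converts pyruvate to lactate, is shown for its 5 motif matches. Capitals mark each ACGTG or GCGTG, or its reverse complement CACGT or CACGC, and the sequences run 5′ to 3′ toward the start site.
Slc2a1 (chr4:119108495-119108744, plus strand): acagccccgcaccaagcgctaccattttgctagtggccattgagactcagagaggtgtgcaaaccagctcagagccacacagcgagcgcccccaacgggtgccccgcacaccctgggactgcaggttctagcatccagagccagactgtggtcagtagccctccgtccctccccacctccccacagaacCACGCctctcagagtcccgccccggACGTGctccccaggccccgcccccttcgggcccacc
Pfkl (chr10:78009808-78010057, minus strand): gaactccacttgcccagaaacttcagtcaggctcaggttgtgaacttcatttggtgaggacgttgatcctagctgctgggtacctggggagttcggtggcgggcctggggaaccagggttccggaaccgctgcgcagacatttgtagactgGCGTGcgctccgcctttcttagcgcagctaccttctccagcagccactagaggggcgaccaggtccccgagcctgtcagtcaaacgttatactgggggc
Aldoc (chr11:78322823-78323072, plus strand): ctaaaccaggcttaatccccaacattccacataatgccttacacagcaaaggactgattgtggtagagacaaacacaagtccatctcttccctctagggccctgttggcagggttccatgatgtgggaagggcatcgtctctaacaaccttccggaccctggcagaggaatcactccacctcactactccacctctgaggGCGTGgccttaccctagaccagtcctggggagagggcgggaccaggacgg
Ugp2 (chr11:21371268-21371517, minus strand): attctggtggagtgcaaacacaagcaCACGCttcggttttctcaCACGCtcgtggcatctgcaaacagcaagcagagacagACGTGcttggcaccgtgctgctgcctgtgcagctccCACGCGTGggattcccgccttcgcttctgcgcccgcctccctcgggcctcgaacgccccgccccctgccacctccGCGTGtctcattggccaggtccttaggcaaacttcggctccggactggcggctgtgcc
Pfkfb4 (chr9:108991652-108991901, plus strand): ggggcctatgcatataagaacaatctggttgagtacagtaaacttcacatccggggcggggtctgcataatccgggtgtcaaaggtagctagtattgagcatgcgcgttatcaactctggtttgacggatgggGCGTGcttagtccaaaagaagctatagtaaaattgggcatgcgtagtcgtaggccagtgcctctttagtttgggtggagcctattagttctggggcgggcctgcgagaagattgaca
Ldha (chr7:46845554-46845803, plus strand): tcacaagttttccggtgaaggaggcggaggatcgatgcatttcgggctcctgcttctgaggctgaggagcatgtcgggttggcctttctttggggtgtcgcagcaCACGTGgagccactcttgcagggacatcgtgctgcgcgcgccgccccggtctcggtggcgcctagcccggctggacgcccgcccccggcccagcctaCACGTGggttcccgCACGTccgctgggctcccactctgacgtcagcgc
Ldha held 5 matches over both strands; its 2 CACGTG copies each match on both strands. Ugp2 held 6, some of which overlap. Slc2a1 held 2, and Pfkl, Aldoc and Pfkfb4 held 1 each.

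No member passed the test in IR against NIR. The fit was limma's moderated test on all 9 arrays with Benjamini-Hochberg adjustment over 18195 genes, and a gene was called at an adjusted p below 0.05. In IR minus NIR 0 of 31 members were called, where 1.65% of all genes were (0.786% higher and 0.863% lower, 300 genes), and the lowest adjusted p was 0.0933, for Slc2a1. At an unadjusted p below 0.05, 7 members were higher and 1 lower in IR, where 7.8% and 8.08% of all genes were. The difference was above 0 for 23 members and below 0 for 8, with a median of 0.08 and a range of -0.31 to 0.74, where the median over all genes was 0.0014 and 50.5% were above 0. In 9 members every IR array was above every NIR array, and in 1 every IR array was below, where 8.69% and 9.4% of all genes separated that way. The 9 were Slc2a1, Hk2, Pfkm, Pfkp, Aldoc, Pgk1, Pfkfb2, Pgm1 and Ugp2, and the 1 was Pfkfb4. The 95% interval of the difference, unadjusted for the number of genes, lay within 2-fold either way for 29 members and within 1.5-fold for 25. Over the 18195 genes tested it did so for 18092 and 17119, a larger share than among the members. In cultured lines, as in any bulk RNA, fewer cells of a type and less RNA per cell cannot be told apart.

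**Figure D1:**
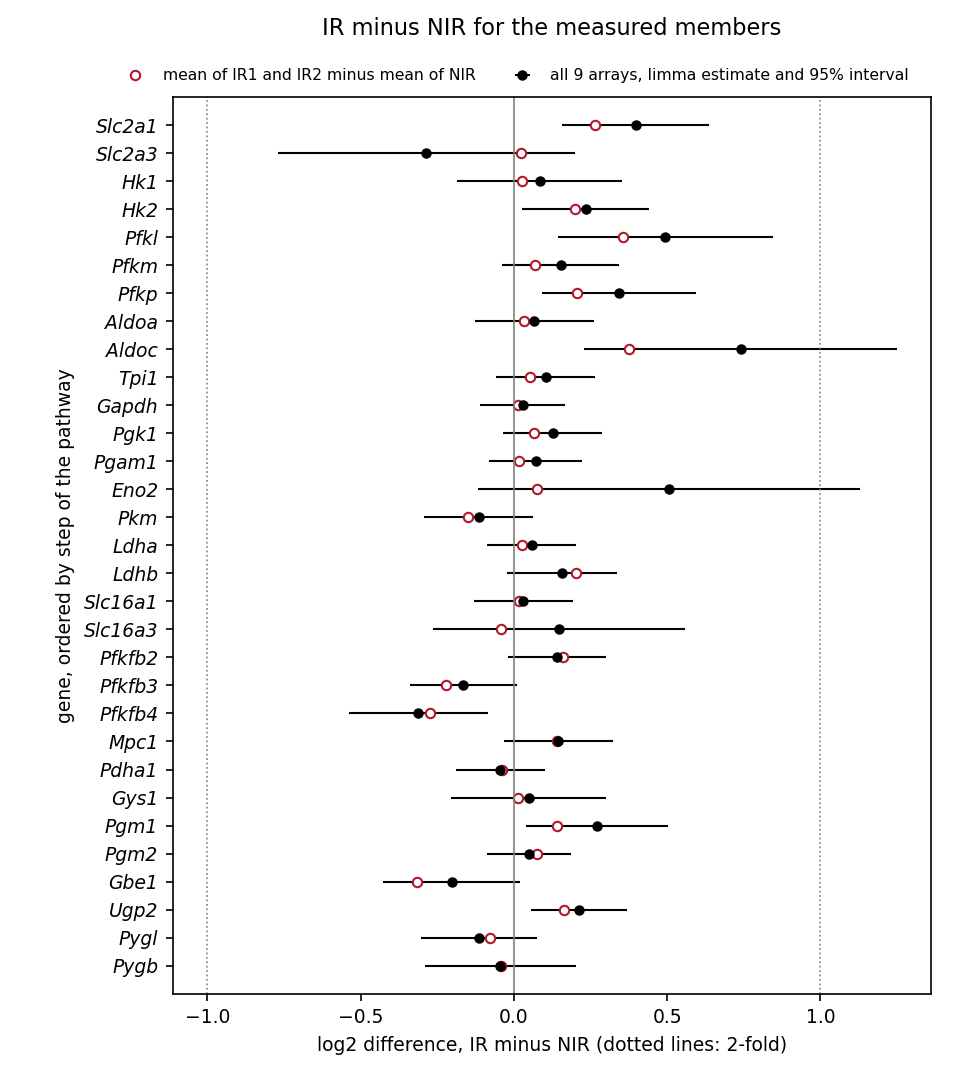
Log2 difference IR minus NIR for the 31 members, ordered by role, with filled points for the fitted difference, bars for its 95% interval and hollow points for the mean of IR1 and IR2 minus the NIR mean. Most members lie between 0 and 0.5, the differences run from -0.31 for Pfkfb4 to 0.74 for Aldoc, and the hollow points of Aldoc and Eno2 lie well left of the filled ones.

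Array IR3 stood apart from IR1 and IR2 over the members. IR3 was the highest IR array in 22 of 31 members and the lowest in 7, where it was highest for 34.4% and lowest for 40% of all genes. The standard deviation of the member differences was 0.12 between IR1 and IR2, 0.40 between IR1 and IR3 and 0.36 between IR2 and IR3, and the same over all genes was 0.13, 0.20 and 0.21. The member mean, relative to the PA mean, was -0.0086 in IR1, -0.0037 in IR2 and 0.17 in IR3. The member median was also highest in IR3 but set it apart by less, at -0.024, -0.027 and 0.052 in IR1 to IR3. Among the members, IR3 lay 1.09 and 1.29 above the mean of IR1 and IR2 in Aldoc and Eno2 and 0.92 below it in Slc2a3. Without IR3 the median difference from NIR was 0.033 in place of 0.085 and 0 members were called in limma's test, where 0.703% of all genes were. The count above 0 was again 23, of which 22 were above 0 with IR3 too: Slc16a3 left and Slc2a3 entered. An unadjusted p below 0.05 was reached by 8 members, where 12.4% of all genes were: Slc2a1, Pfkl, Aldoc, Ugp2, Ldhb, Pfkfb3, Pfkfb4 and Gbe1, so Hk2, Pfkp and Pgm1 no longer did. Lyz2, which made up 305 of the macrophage sum of 845 in IR3, was at 5.71, 5.78 and 8.25 in IR1 to IR3. Its part in the members' values was not tested, nor was that of the other macrophage markers. The difference between the 3′ and 5′ control probe sets of Gapdh, which tracks RNA integrity, was -0.15 to -0.11 in IR, -0.17 to -0.066 in NIR and -0.17 to -0.097 in PA, and these ranges overlap.

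**Figure D2:**
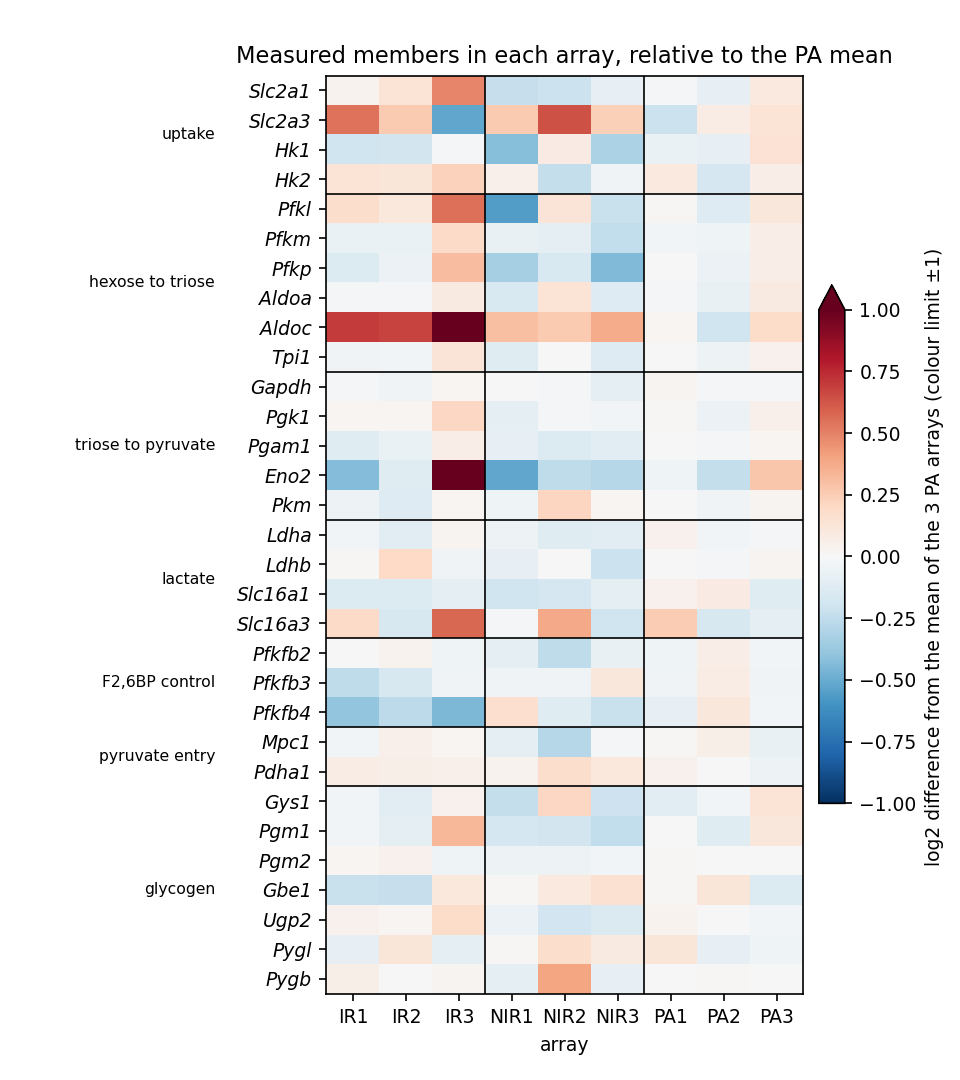
Log2 signal of each of the 31 members in each of the 9 arrays, shown as the difference from that member's mean in PA, with colours limited at 1 in either direction. IR3 stands out from IR1 and IR2 in Aldoc, Eno2 and Slc2a3, and the NIR mean lies below the PA mean for 22 members.

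Among the genes of glucose uptake and phosphorylation, Slc2a1, which encodes the carrier GLUT1, had the lowest adjusted p of the members in IR minus NIR. Its values were 10.45, 10.55 and 10.90 in IR1 to IR3, 10.18, 10.20 and 10.33 in NIR1 to NIR3 and 10.40, 10.33 and 10.51 in PA1 to PA3. All IR arrays were above all NIR arrays, while the ranges of IR and PA overlapped. The difference from NIR was 0.40 (95% interval 0.16 to 0.64), a 1.32-fold higher signal, with an unadjusted p of 0.00358 and a limma adjusted p of 0.0933 (n = 3 arrays a group). Without IR3 it was 0.26, and against PA it was 0.22 (adjusted p = 0.631). The other 2 Slc2a1 probe sets gave 0.24 and 0.07. Hk2, the inducible hexokinase, had 8.27, 8.25 and 8.37 in IR1 to IR3, 8.19, 7.90 and 8.10 in NIR1 to NIR3 and 8.23, 7.97 and 8.20 in PA1 to PA3, with all IR arrays above all NIR arrays. Its difference from NIR was 0.23 (interval 0.03 to 0.44, limma adjusted p = 0.249) and from PA 0.16 (limma adjusted p = 0.712), both short of the threshold. Slc2a3, the carrier GLUT3, had 7.00, 6.72 and 5.93 in IR1 to IR3, where IR3 lay 0.92 below the mean of the other IR arrays, and 6.69 to 7.10 in NIR. Its difference from NIR was -0.29 (limma adjusted p = 0.598), and the sign turned without IR3, to 0.02. The housekeeping hexokinase Hk1 had group means of 8.25 ± 0.099, 8.16 ± 0.27 and 8.38 ± 0.13 in IR, NIR and PA.

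From hexose phosphate to triose phosphate, all 6 measured members were above 0 in IR minus NIR, with a median of 0.25, and none was called. Pfkl, the liver-type phosphofructokinase, had 9.85, 9.78 and 10.23 in IR1 to IR3, 9.12, 9.80 and 9.46 in NIR1 to NIR3 and 9.69, 9.55 and 9.79 in PA1 to PA3. NIR1 lay below all other arrays and the IR and NIR ranges overlapped in NIR2. The difference IR minus NIR was 0.49 (interval 0.14 to 0.84), 1.41-fold, with a limma adjusted p of 0.148. The other Pfkl probe sets gave 0.59 and 0.10. The first, at a mean of 9.20, had all IR arrays above all NIR arrays (limma adjusted p = 0.0539 in a fit over every probe set). The second, at a mean of 4.45, lay below the median of all probe sets. Pfkp, the platelet-type enzyme, had 7.80, 7.88 and 8.25 in IR1 to IR3, 7.61, 7.79 and 7.50 in NIR1 to NIR3 and 7.94, 7.88 and 8.00 in PA1 to PA3, and each IR array was above each NIR array. Its difference from NIR was 0.34 (limma adjusted p = 0.16), and NIR minus PA was -0.31 (adjusted p = 0.302), with every NIR array below every PA array. The muscle-type Pfkm differed by 0.15 from NIR and 0.02 from PA. Without IR3 the differences from NIR were 0.21 for Pfkp, 0.07 for Pfkm and 0.36 for Pfkl.

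Aldoc, which encodes aldolase C, a form named for the brain, was the member with the widest difference in IR minus NIR and in IR minus PA, and IR3 was its highest array. Its values were 5.76, 5.74 and 6.84 in IR1 to IR3, 5.37, 5.33 and 5.44 in NIR1 to NIR3 and 5.08, 4.87 and 5.25 in PA1 to PA3. The 3 groups did not overlap, with IR highest and PA lowest, and IR3 lay 1.09 above the mean of IR1 and IR2. IR minus NIR was 0.74 (interval 0.23 to 1.25, 1.67-fold, limma adjusted p = 0.137). IR minus PA was 1.05 (interval 0.54 to 1.56, 2.07-fold, limma adjusted p = 0.0642). Without IR3 these became 0.38 and 0.69, and the latter passed the test, with a limma adjusted p of 0.0097. The other Aldoc probe set, which lay below the median probe set, gave -0.14 against NIR and -0.05 against PA. Aldoa, the ubiquitous aldolase, and Tpi1, which interconverts the triose phosphates, differed by 0.07 and 0.10 from NIR.

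**Figure D3:**
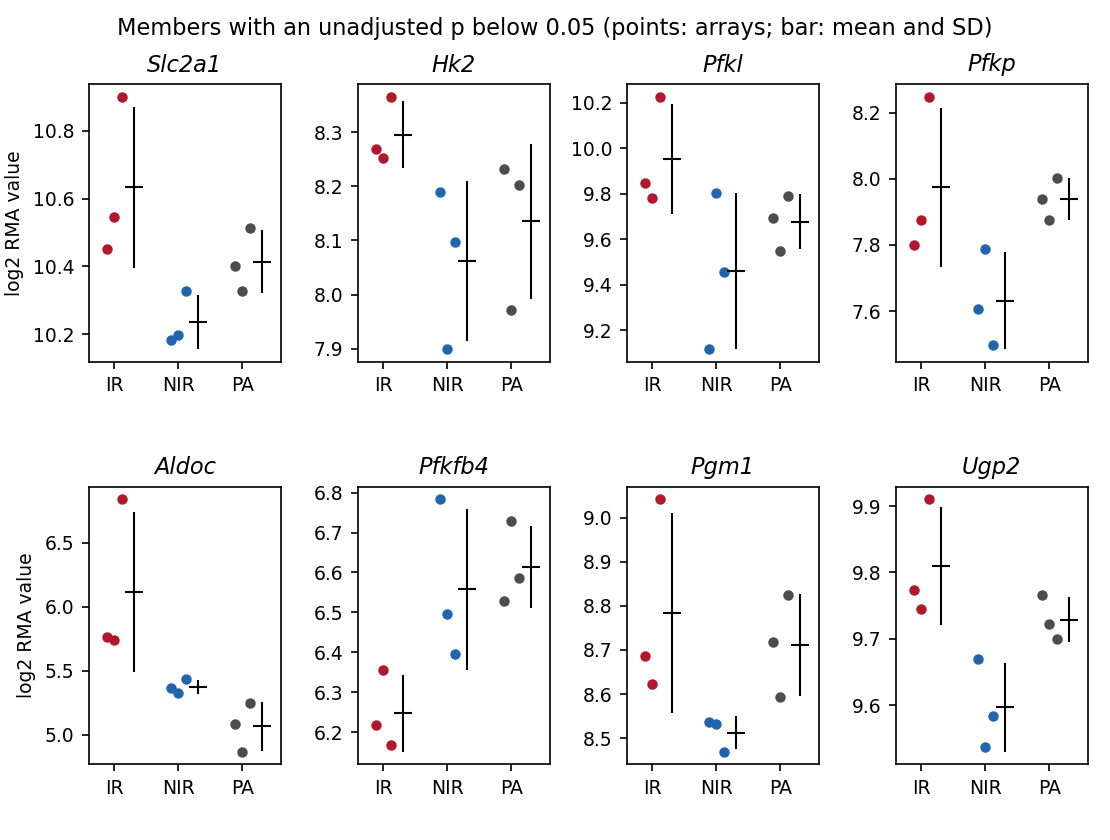
Log2 signal of 8 members in each array, with points for arrays and bars for the group mean and SD, for the members with an unadjusted p below 0.05 in any comparison. IR3 is the topmost IR point of Aldoc at 6.84, and Pfkfb4 has all IR points, 6.17 to 6.35, below all NIR and PA points.

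From triose phosphate to pyruvate, 4 of 5 members were above 0 in IR minus NIR, with a median of 0.07, and none was called. Gapdh, which was read by the array's own control probe sets, had 13.44, 13.42 and 13.48 in IR1 to IR3, 13.45, 13.44 and 13.37 in NIR1 to NIR3 and 13.48, 13.44 and 13.44 in PA1 to PA3, and IR minus NIR was 0.03 (interval -0.11 to 0.17). Pgk1, the first enzyme of this stretch to make ATP, had 12.55, 12.56 and 12.74 in IR1 to IR3, 12.44, 12.52 and 12.51 in NIR1 to NIR3 and 12.55, 12.48 and 12.59 in PA1 to PA3, and its IR arrays were above its NIR arrays by 0.13 on average, or 0.07 without IR3. Pgam1 differed by 0.07 and Pkm, pyruvate kinase, by -0.11. Eno2, neuronal enolase, had 4.60, 4.91 and 6.04 in IR1 to IR3, 4.51, 4.78 and 4.75 in NIR1 to NIR3 and 4.99, 4.80 and 5.31 in PA1 to PA3. IR3 was the highest of all 9 arrays, 1.29 above the mean of the other IR arrays, and without it the difference from NIR was 0.08 in place of 0.50 (limma adjusted p = 0.436). The Eno2 mean over 9 arrays, 4.96, lay close to the median of all probe sets (4.49).

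Of the 4 genes of lactate formation and transport, none was called and none had an unadjusted p below 0.05 in any comparison. Ldha, whose subunit favours making lactate, had 12.31, 12.24 and 12.37 in IR1 to IR3, 12.29, 12.22 and 12.23 in NIR1 to NIR3 and 12.38, 12.31 and 12.33 in PA1 to PA3, with group means of 12.30 ± 0.065, 12.25 ± 0.037 and 12.34 ± 0.037. IR minus NIR was 0.06 (interval -0.09 to 0.20, limma adjusted p = 0.738) and IR minus PA was -0.04 (interval -0.18 to 0.11). Both intervals lay within 1.5-fold, and its 9 values spanned 12.22 to 12.38. Slc16a3, which encodes the lactate exporter MCT4 and is known as a hypoxia-responsive gene, had 8.83, 8.48 and 9.22 in IR1 to IR3, 8.62, 9.02 and 8.44 in NIR1 to NIR3 and 8.89, 8.48 and 8.54 in PA1 to PA3, and all groups overlapped. IR minus NIR was 0.15 (interval -0.26 to 0.56, limma adjusted p = 0.777), and the sign turned without IR3, to -0.04. Slc16a1, the carrier MCT1, differed by 0.03 and Ldhb, the subunit that favours the reverse reaction, by 0.16.

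The enzymes that set fructose 2,6-bisphosphate, an activator of phosphofructokinase, had differences below 0 in IR minus NIR for 2 of 3 members, with none called. Pfkfb4 had 6.22, 6.35 and 6.17 in IR1 to IR3, 6.78, 6.50 and 6.39 in NIR1 to NIR3 and 6.53, 6.73 and 6.59 in PA1 to PA3, and each IR array was below every NIR and PA array. IR minus NIR was -0.31 (interval -0.54 to -0.09, 1.24-fold lower, limma adjusted p = 0.155). IR minus PA was -0.37 (interval -0.59 to -0.14, 1.29-fold lower, limma adjusted p = 0.183). Leaving out 1 array gave -0.39 to -0.20 against NIR and -0.42 to -0.31 against PA. Since the groups did not overlap, no such fit could turn the sign. Pfkfb3, the form best known for driving glycolysis, had 4.57, 4.66 and 4.79 in IR1 to IR3, 4.79, 4.79 and 4.94 in NIR1 to NIR3 and 4.79, 4.90 and 4.79 in PA1 to PA3, with a difference from NIR of -0.16 (interval -0.34 to 0.01, limma adjusted p = 0.347). The Pfkfb3 mean over 9 arrays, 4.78, lay close to the median of all probe sets (4.49). Pfkfb2, the cardiac form, differed by 0.14.

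For entry of pyruvate into mitochondria, Mpc1, a subunit of the pyruvate carrier, differed by 0.15 from NIR, and Pdha1, the catalytic subunit of pyruvate dehydrogenase, by -0.04. Their intervals, -0.03 to 0.32 and -0.19 to 0.10, both held 0.

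Among 7 glycogen genes, Ugp2 and Pgm1, which act on the route to UDP-glucose, had unadjusted p-values below 0.05 and none was called. Ugp2 had 9.77, 9.74 and 9.91 in IR1 to IR3, 9.67, 9.54 and 9.58 in NIR1 to NIR3 and 9.77, 9.72 and 9.70 in PA1 to PA3, with all IR arrays above all NIR arrays. IR minus NIR was 0.21 (interval 0.06 to 0.37, 1.16-fold, limma adjusted p = 0.163), and all 5 Ugp2 probe sets were above 0, from 0.21 to 0.34. Pgm1, phosphoglucomutase, had 8.69, 8.62 and 9.04 in IR1 to IR3, 8.54, 8.53 and 8.47 in NIR1 to NIR3 and 8.72, 8.59 and 8.82 in PA1 to PA3, with a difference of 0.27 from NIR (interval 0.04 to 0.50, limma adjusted p = 0.233) and 0.07 from PA. Without IR3 these were 0.14 and -0.06, and the other Pgm1 probe set gave 0.0016 against NIR. Gbe1, the branching enzyme, had 7.21 to 7.55 in IR, 7.45 to 7.59 in NIR and 7.30 to 7.57 in PA, a difference from NIR of -0.20 (limma adjusted p = 0.371). Glycogen synthase Gys1, Pgm2 and the brain-type phosphorylase Pygb differed by 0.05, 0.05 and -0.04. Pygl, the liver-type phosphorylase, was the only member below the median of all probe sets in every array, at 3.05 to 3.26 in IR and 3.15 to 3.32 in NIR, and its difference from NIR was -0.11.

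The probe sets of a gene did not always point the same way. Of 18 members with more than 1 probe set, all probe sets had the same sign in IR minus NIR for 11, among them Slc2a1, Pfkl, Pfkp, Pgk1, Ugp2 and, with its second value close to 0, Pgm1, and they differed in sign for 7, namely Aldoc, Hk1, Ldhb, Pdha1, Pfkfb2, Pfkfb3 and Slc2a3. In a fit over every probe set, none of the members' 67 probe sets passed the test in any of the 3 comparisons.

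**Figure D4:**
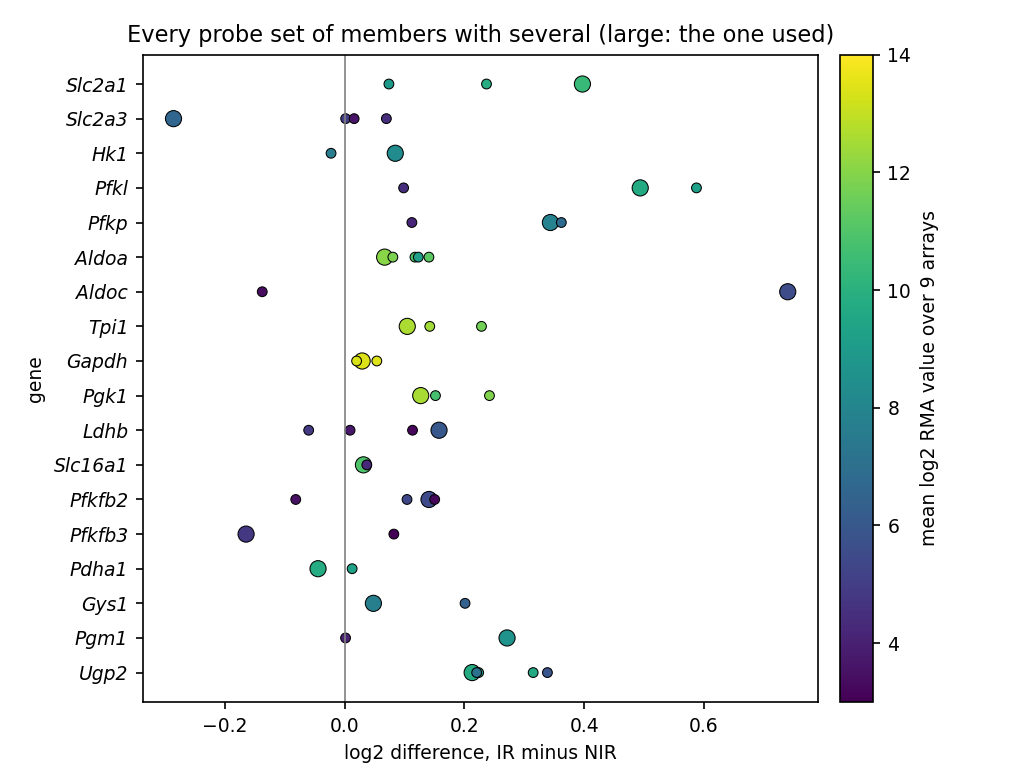
Log2 difference IR minus NIR for every probe set of the 18 members that have several, with the probe set used in the text set apart from the others. The 5 probe sets of Ugp2 all lie between 0.21 and 0.34, while the 2 of Aldoc lie at 0.74 and -0.14.

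Against the parental cells, IR again gave no call. In IR minus PA 0 of 31 members were called, where 1.06% of all genes were (0.297% higher and 0.758% lower). At an unadjusted p below 0.05, 1 member (Aldoc) was higher and 1 (Pfkfb4) lower, where 4.3% of all genes were higher and 4.3% lower (8.6% together). In 20 members the difference was above 0 (median 0.02, all genes 0.0043). Every IR array was above every PA array for Hk2, Aldoc and Pdha1 and below it for Pfkfb4, where 7.25% and 7.43% of all genes separated in those directions. The interval lay within 2-fold for 30 members and within 1.5-fold for 26, where it did for 18051 and 17558 of the 18195 genes tested. Without IR3, 1 member (Aldoc) was called, where 1.02% of all genes were, and 5 had an unadjusted p below 0.05, where 8.81% of all genes did. In that fit 15 members were above 0: Pfkm, Pfkp, Aldoa, Tpi1, Eno2 and Pgm1 turned from above to below 0, with Eno2 at -0.28 in place of 0.15, and Pygl turned the other way.

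NIR against PA gave no call either. In NIR minus PA 0 of 31 members were called, where 1.3% of all genes were (0.379% higher and 0.918% lower). At an unadjusted p below 0.05, 0 members were higher and 1 (Pfkp) lower, where 5.96% and 6.14% of all genes were (12.1% together). The difference was above 0 for 9 members and below 0 for 22 (median -0.08, all genes 0.0046), and in 9 members every NIR array was below every PA array, where 7.73% of all genes were. These 9 were Pfkm, Pfkp, Pgam1, Eno2, Ldha, Pfkfb2, Pgm1, Pgm2 and Ugp2, with differences from -0.35 for Eno2 to -0.04 for Pgm2. In 2, Slc2a3 and Aldoc, every NIR array was above every PA array, where 7.82% of all genes were. With IR3 left out of the shared estimate of spread, 0 were called and 6 had an unadjusted p below 0.05, where 2.03% and 13.5% of all genes did. IR minus NIR and NIR minus PA share the NIR arrays. Slc2a1 was 0.40 and -0.18, Pfkp 0.34 and -0.31, Pgm1 0.27 and -0.20 and Ugp2 0.21 and -0.13. In IR minus PA the same genes were 0.22, 0.04, 0.07 and 0.08, and without IR3 they were 0.09, -0.10, -0.06 and 0.03.

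Around the pathway, 97 of 103 further genes of pyruvate, glycogen, pentose phosphate, tricarboxylic acid and glycerol phosphate metabolism and its regulators were measured. In IR minus NIR 1 was called higher and 2 lower, in IR minus PA 1 lower and in NIR minus PA 2 lower, where 1.65%, 1.06% and 1.3% of all genes were called in either direction. Pdk1, the kinase that switches off pyruvate dehydrogenase, had 8.42, 8.43 and 9.29 in IR1 to IR3, 7.04, 7.34 and 7.73 in NIR1 to NIR3 and 8.30, 8.42 and 8.45 in PA1 to PA3. NIR stood low and IR and PA lay together, apart from a high IR3. It was 1.34 higher in IR than in NIR (limma adjusted p = 0.0173) and -1.02 in NIR minus PA (limma adjusted p = 0.047), while IR minus PA was 0.32 (limma adjusted p = 0.77). Leaving out 1 array at a time, the first call was lost without NIR1 or NIR2 and the second kept only without IR3 or NIR3. The mean over the Pdk1 probe sets gave 0.79 (limma adjusted p = 0.0596) and -0.57 (limma adjusted p = 0.216). The second brightest, at a mean of 8.00, gave 0.79 and -0.49, with limma adjusted p-values of 0.101 and 0.415 in a fit over every probe set. In that fit the probe set used had 0.0196 and 0.0621.

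Pcx, pyruvate carboxylase, which makes oxaloacetate from pyruvate, had 6.11, 5.74 and 5.96 in IR1 to IR3, 6.44, 6.82 and 6.39 in NIR1 to NIR3 and 6.56, 6.76 and 6.52 in PA1 to PA3. Every IR array was below every NIR and PA array, and IR minus NIR was -0.62 (limma adjusted p = 0.0396) and IR minus PA was -0.67 (limma adjusted p = 0.0266). The first call was kept only without NIR3 and the second was lost without IR2, IR3, PA1, PA2 or PA3, with adjusted p-values up to 0.110 and 0.160. The 4 control probe sets of Pcx on the array gave -0.54, -0.06, -0.07 and -0.24 in IR minus NIR. Gpd1l, a glycerol-3-phosphate dehydrogenase, had 8.18, 8.20 and 7.96 in IR1 to IR3, 8.51, 8.71 and 8.54 in NIR1 to NIR3 and 8.47, 8.51 and 8.51 in PA1 to PA3, a difference from NIR of -0.47 (limma adjusted p = 0.0231) and from PA of -0.38 (limma adjusted p = 0.0637). The call against NIR was lost without IR1, IR3, NIR2 or PA1, with a limma adjusted p up to 0.0611. With only IR and NIR in the fit, the IR minus NIR calls of Pdk1, Pcx and Gpd1l were lost, at limma adjusted p-values of 0.110, 0.141 and 0.112. Idh1, the cytosolic isocitrate dehydrogenase, had 9.51, 9.48 and 9.63 in IR1 to IR3, 9.11, 9.26 and 9.37 in NIR1 to NIR3 and 9.82, 9.84 and 9.86 in PA1 to PA3, and NIR minus PA was -0.60 (limma adjusted p = 0.00219), which held in each of the 9 fits that left out 1 array.

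**Figure D5:**
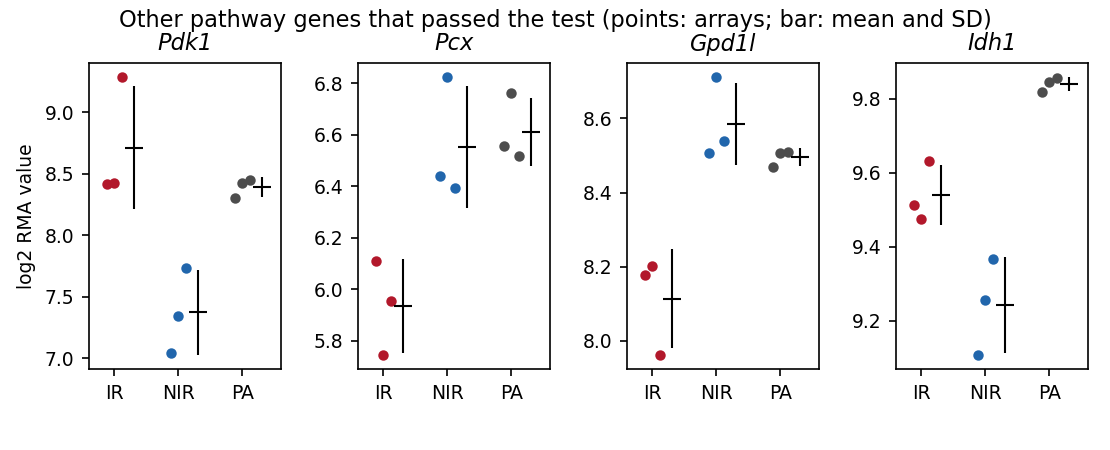
Log2 signal of Pdk1, Pcx, Gpd1l and Idh1 in each array, with bars for the group mean and SD, for the 4 genes near the pathway that passed the test in a comparison. Pdk1 has its 3 NIR points between 7.04 and 7.73 and its IR and PA points at 8.30 or above, and Pcx has all IR points below all others.

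The other lists gave no call in IR minus NIR: 0 of 16 further glycogen genes, 0 of 22 further isozymes and transporters, 0 of 7 pentose phosphate genes, 0 of 19 tricarboxylic acid cycle genes and 0 of 11 regulators, with 2, 1, 1, 4 and 2 of them at an unadjusted p below 0.05 in limma's test, where 15.9% of all genes were. Among the regulators, Hif1a, the oxygen-sensitive subunit of hypoxia-inducible factor, differed by 0.04 (limma adjusted p = 0.852) and Myc by 0.07. Txnip, which restrains glucose uptake, differed by 0.70 (limma adjusted p = 0.208), with 6.36, 6.31 and 7.56 in IR1 to IR3, so that IR3 again stood above the other IR arrays.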

How the data were processed

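Each of the 9 samples was hybridised to 1 Affymetrix mouse array. The deposited values are log2 signals per probe set, made with RMA per the submitters' processing notes; its version and settings are not given in the sources used here. Values ran from 2.47 to 14.01 and array medians from 4.45 to 4.52. Of 45100 probe sets, 34944 non-control probe sets named 1 gene, and 34740 of these matched a RefSeq GRCm38.p6 record, from which symbols were updated. Multi-gene probe sets (932) were left out, and control probe sets were used only for genes with no other, which brought in Gapdh. Each gene was represented by its brightest probe set, judged on the mean of 9 arrays.

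All 18195 genes were fitted in limma 3.58.1 (R 4.3.3) with 1 mean per group, no filter, 6 residual and 5.48 prior degrees of freedom, 2-sided, Benjamini-Hochberg adjustment over all genes and a threshold of 0.05. Scripts were tested on simulated data. Only 3 arrays a group limit the precision. Members, lists and named genes (members at an unadjusted p below 0.05, plus Slc2a1, Hk2, Pfkfb3, Ldha and Slc16a3, and called pathway genes) were chosen with earlier results of these data known. Alternatives covered the filter, probe set choice, scaling, the fit's options, the groups fitted, a replicate block and leaving out each array. Array numbers were not used to pair the samples in the main fit. Correlations of same-numbered arrays' deviations from their group means ran from -0.20 to 0.10, which with 3 arrays a group cannot settle whether a number marks a pairing.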

Additional observations from a re-analysis of the deposited data

How the results depend on the processing

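Each comparison was refitted under 18 other settings, of which 9 leave out 1 array, and 136 counts and medians stayed within 1.5 times of their value or within the spread between arrays, while 26 moved. Called members stayed at 0 in every setting for IR minus NIR and NIR minus PA. For IR minus PA it was 1 (Aldoc) with a trended robust prior, with array weights, with the replicate block and without IR3, so leaving out 1 array gave 0 to 1. All genes called in IR minus NIR were 11 when only IR and NIR were fitted and 77 to 271 when 1 array was left out. In IR minus PA they were 467 with array weights and 99 to 214 leaving out 1 array. In NIR minus PA they were 382 with array weights and 121 to 370 leaving out 1 array, the highest without IR3. The members' median in IR minus NIR ran from 0.033 without IR3 to 0.141 without NIR2. With the probe set kept, no sign turned for a member whose groups did not overlap in that comparison. For such a member, leaving out 1 array cannot turn the sign, so those 9 settings do not test it. Among the other members, none of them called, the sign turned in at least 1 setting for 5 in IR minus NIR, 16 in IR minus PA and 8 in NIR minus PA. Members above 0 in IR minus PA were 20, but 15 without IR3 and 14 with array weights. Through other probe sets, signs also reversed. Aldoc gave -0.14 (IR minus NIR) and -0.048 (IR minus PA). The same values arose where probe sets with names ending in _x_at, _s_at or _a_at were left out, since the dimmer Aldoc probe set was then read. Pfkfb2 gave -0.082 (IR minus NIR) and 0.017 (NIR minus PA), and Pdk1 gave -0.024 (IR minus NIR) and 0.029 (NIR minus PA). Pdha1 gave -0.0085 (IR minus PA) and Pgm1 0.028 (NIR minus PA). Slc2a3 gave -0.026 (also without the probe sets so named) and -0.0040 (NIR minus PA). Median centring, quantile normalization and the other settings gave medians over all genes of -0.0051 to 0.013. Whether equal array numbers mark a pairing was not settled. With the replicate block the calls over all genes were 230, 164 and 203, and Aldoc in IR minus PA had a limma adjusted p of 0.0285. Why these values moved was not tested, beyond the fewer arrays or other probe sets in the fit.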
